A study of Mus musculus with 6 samples.

Results

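The genes described are 10 of the 31053 in the deposited matrix, 7 lysosomal proteases (Ctsa, Ctsb, Ctsd, Ctsl, Ctss, Ctsz and Lgmn) and 3 cystatins (Cst3, Cst7 and Cstb), which are inhibitors of cysteine proteases. They were taken by gene symbol from a list of names, and all 10 were found in the matrix. What was examined is the balance of the proteases against the cystatins in groups of single cells that were gated on marker genes, none of which is among the 10.

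Single-cell RNA sequencing was performed on CD45+ cells sorted from the tumor-bearing hemisphere of female SCID mice, which lack T and B lymphocytes and keep their innate immune cells. All mice received 50000 cells of U87, an established human glioma line, at 8 weeks of age, and 3 carried U87 with IL-33 and 3 carried U87 with the empty pcDNA vector. Tumors with IL-33 were collected at 3 weeks and vector controls at 6 weeks, and any effect of IL-33 cannot be told apart from that of time. The 6 libraries lie in 1 matrix whose barcodes end in a suffix from 1 to 6, and the sample labels tie no suffix to a mouse. Groups were taken from those labels alone and not from cell counts or values, so the 2 groups were not compared here, the matrix was read as 1 pooled sample, and no test across animals was made. Suffixes served only to show the range of each value.

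Of 40411 barcodes, 38751 passed the limits of the study on genes and mitochondrial counts. The suffixes held 9745192 to 24393841 unique molecular identifiers (UMIs, 1 per captured transcript), with medians of 1536 to 3503 UMIs per barcode. Microglia-like cells made up 90.8% of passing barcodes (35200 cells). They were gated on the summed UMIs of Tmem119, Gpr34, Olfml3, P2ry12, Cx3cr1 and Selplg, and need not carry each of these. The paper reports bone-marrow-derived macrophages in these data with low levels of Selplg, P2ry12 and Tmem119. Whether the microglia-like gates hold such cells was not tested. T and B cell markers were near absent, with Cd3d in 46 cells, Cd3e in 13, Cd79a in 6 and Ms4a1 in 3. The choroid plexus-like gate held 255 cells, although the sort was for CD45.

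Libraries shared barcodes. In all, 3793 barcode sequences occurred under more than 1 suffix, they were held by 14427 passing barcodes (37.2%), and 481 of them occurred under all 6. Across the 15 pairs of suffixes, the Cst3 share of a shared sequence in one suffix correlated with that in the other at r = 0.795 to 0.881, a description in which the points share barcode sequence and possibly cells. Shared barcodes held a median of 926 UMIs against 3116 for the others, and made up 80.5% of Apoe-high and 10.8% of Apoe-low microglia-like cells. Suffixes are thus not independent where shared barcodes abound, and the main results are given for all barcodes and for the 24324 barcodes whose sequence occurred once (unshared). The cause of the sharing was not tested.

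Lysosomal proteases degrade the material that microglia and macrophages take up. Ctsd is an aspartic protease and Ctsa a serine carboxypeptidase that also protects other lysosomal enzymes. Ctsb, Ctsl, Ctss and Ctsz are cysteine proteases of the papain family, of which Ctss trims the invariant chain of MHC class II and Ctsz acts as a carboxypeptidase. Lgmn (legumain) cleaves after asparagine and matures other cathepsins. The cystatins bind cysteine proteases of this kind and not Ctsd or Ctsa. Cst3 (cystatin C) is secreted, Cst7 (cystatin F) is a leukocyte cystatin delivered to endosomes and lysosomes, and Cstb (stefin B) stays in the cytosol. Many lysosomal genes carry the CACGTG motif bound by TFEB and its relatives, the regulators of lysosome formation.

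The genes lie on 7 chromosomes of GRCm38, with Ctsa, Ctsz, Cst3 and Cst7 all on chromosome 2 (Ctsa at chr2:164832873-164841032, Cst3 at chr2:148871722-148875692 and Cst7 at chr2:150570415-150578944). Ctsb lies at chr14:63122462-63145923, Ctsd at chr7:142375911-142388038, Ctsl at chr13:64359337-64370890, Ctss at chr3:95526786-95556403, Ctsz at chr2:174427493-174439039, Lgmn at chr12:102394084-102439813 and Cstb at chr10:78425669-78427622. Ctsd, Ctsl and Ctss each overlap another annotated gene on the same strand (Gm49369, Gm49230 and Hmgb1-ps5), so that their counts are uncertain to that extent. Promoter windows of 250 bases before to 50 after a start were found for 8 of the 10 genes in the RefSeq table of GRCm38.p6. Ctsb and Cstb have no entry there.

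CACGTG, read on both strands, was held by 7.15% of the 32851 promoter windows of all genes and by a window of 4 of the 8 members (Ctsa, Ctsd, Ctsl and Lgmn). The longer TCACGTG, which overlaps it, was held by 3.77% of all windows and by Ctsa, Ctsd and Lgmn. The shares count windows while the members are counted as genes. Ctsa and Lgmn have a further window each, so the figures are not on one scale. The sites are printed because the genes that hold the motif differed in behavior. With all barcodes Ctsa, Ctsd and Ctsl were called higher in Apoe-high cells and Lgmn was not called. Without shared barcodes Ctsl alone of the 4 was called. Ctsz, whose window holds no CACGTG, was called with either set, and a link of motif and level was not tested. Each line gives 30 bases of the sense strand of the gene with CACGTG in capitals. The windows of Ctsa (chr2:164833757-164833786, + strand) and Lgmn (chr12:102439124-102439153, - strand) belong to a further start inside the gene. The others are Ctsd at chr7:142388048-142388077 and chr7:142387908-142387937 (- strand) and Ctsl at chr13:64370739-64370768 (- strand). The Ctsl window and the proximal Ctsd site also lie within the span given above for the gene.
Ctsa: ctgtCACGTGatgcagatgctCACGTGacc
Ctsd distal: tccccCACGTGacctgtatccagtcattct
Ctsd proximal: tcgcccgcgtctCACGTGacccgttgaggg
Ctsl: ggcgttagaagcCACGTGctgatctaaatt
Lgmn: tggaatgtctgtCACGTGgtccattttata
A match describes letters only. Among the members only Ctss held GAGGAAGT (3.20% of all windows), a sequence that PU.1 can bind. Shorter or variant PU.1 sites were not searched. The Cst3, Cst7 and Ctsz windows held none of the 3 motifs searched.

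Levels are given per 1000000 UMIs of a gate (CPM), after adding up the UMIs of all its cells. UMIs of the 3′ assay count transcript ends and do not grow with transcript length, so that levels of different genes may be set side by side within the limits of capture. In Apoe-low microglia-like cells (8784 cells with Apoe under 0.2% of UMIs and no state marker), the 10 genes took 9.92% of all UMIs. Cst3 alone took 6.89%, at 68880 CPM (95% Poisson interval 68774 to 68987, counting error only). Among suffixes it ranged from 64069 to 73762 with a median of 67297 CPM. The inhibitor was thus the most abundant of the 10, and held 99.9% of the cystatin UMIs.

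Among the proteases of Apoe-low cells, Ctsd stood at 9256 CPM (suffixes 8370 to 10339), Ctss at 8155 (7888 to 8490) and Lgmn at 7699 (7290 to 8088). The ranges of Ctss and Lgmn over suffixes overlapped, as did those of Ctsd and Ctss. A second tier followed without overlap, with Ctsb at 1814 CPM (1661 to 2060) and Ctsz at 1623 (1508 to 1755), whose ranges overlapped each other, and then Ctsa at 949 (876 to 1044) and Ctsl at 708 (661 to 810). Cstb reached 86.2 CPM (73.5 to 103) and Cst7 1.66 CPM, from 39 UMIs in all. The 7 proteases together came to 0.438 UMIs per cystatin UMI (suffixes 0.415, median 0.445, to 0.492). Without shared barcodes the balance was 0.432, with Cst3 at 69376, Ctsd at 9131, Ctss at 8141, Lgmn at 7729, Ctsb at 1793 and Ctsz at 1592 CPM.

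Apoe, a lipid carrier, is known as a marker of microglia that respond to damage, and Apoe-high cells (at least 1.5% of UMIs, 9895 cells) were compared with Apoe-low cells. Ctsb was 2.39-fold and Ctsl 2.05-fold higher, Ctsz, Ctsd, Ctsa and Cstb were also higher, Cst3 was lower, and Cst7 went from nearly absent to 78.8 CPM. The balance of proteases to cystatins went from 0.438 to 0.908. Without shared barcodes it went from 0.432 to 0.706 (suffixes 0.550 to 0.924 in Apoe-high cells). A gene is called here if its pooled CPM differed at least 1.5-fold and every suffix had the same direction, among genes of a mean of at least 50 CPM. A single suffix may lie under 1.5-fold, as for Cstb, whose lowest suffix ratio was 1.30. By this rule 6 of the 9 members tested were higher and 0 lower, beside 6.06% higher and 5.39% lower of all 2725 genes. Without shared barcodes 3 of 9 were higher (Ctsb, Ctsl and Ctsz), beside 5.67% of 2644 genes, and 0 lower, beside 2.80%. The median ratio over all 10 members was 1.69, or 1.45 without shared barcodes, beside 0.992 and 0.936 for all genes. From these same data the paper lists Ctsb, Ctsd and Ctsz among top genes of glioma-associated microglia and macrophages. It lists Cst3 for homeostatic microglia. The members were chosen with such results known, so their counts are a description and no independent support.

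Ctsb was at 1661 CPM in the lowest, 1832 in the median and 2060 in the highest suffix of Apoe-low cells, and at 3946, 4420 and 4629 CPM in Apoe-high cells. The suffixes of the 2 gates did not overlap. Gene levels by suffix, here and in the next paragraphs, are those of all barcodes. As 80.5% of Apoe-high barcodes share a sequence, these suffixes are not independent. The ratio of Ctsb was 2.39 (interval 2.36 to 2.41), and 2.05 (2.02 to 2.08) without shared barcodes, higher in 6 of 6 suffixes each time. Ctsl went from 661, 702 and 810 CPM to 1337, 1416 and 1633 CPM, again without overlap. Its ratio of 2.05 became 1.95 without shared barcodes.

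The other called proteases depended more on the shared barcodes. Ctsz was at 1508, 1646 and 1755 CPM in Apoe-low and 2920, 3243 and 3416 CPM in Apoe-high suffixes, a ratio of 1.98, and 1.54 on unshared barcodes. Ctsd, the main protease by level, went from 8370, 9538 and 10339 to 15156, 16926 and 18026 CPM. Its ratio was 1.82, and 1.47 without shared barcodes, which is under the 1.5-fold line. Ctsa showed the same pattern, with 876, 935 and 1044 CPM against 1362, 1482 and 1646 CPM, a ratio of 1.57, and 1.34 without shared barcodes. In each of these genes all 6 Apoe-high suffixes stood above all 6 Apoe-low suffixes.

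Ctss and Lgmn, abundant in every microglial gate, were not called. Ctss was 1.33-fold higher in Apoe-high cells (1.42 without shared barcodes), with 7888, 8224 and 8490 CPM against 10449, 10774 and 11568 CPM. The difference had 1 direction in 6 of 6 suffixes but did not reach 1.5-fold. Lgmn had a ratio of 0.893 (0.954 without shared barcodes), at 7290, 7725 and 8088 CPM against 6524, 6762 and 7422 CPM, lower in 6 of 6 suffixes with either set, although the ranges of the gates overlapped.

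The 3 cystatins went in different directions. Cst3 was at 64069, 67297 and 73762 CPM in Apoe-low and 44566, 50012 and 53043 CPM in Apoe-high suffixes, with no overlap and a ratio of 0.717 (0.715 to 0.719). This is short of the 1.5-fold line. Without shared barcodes the ratio was 0.836, and only 5 of 6 suffixes were lower. Cstb went from 73.5, 88.3 and 103 CPM to 111, 132 and 139 CPM, a ratio of 1.54 (1.42 without shared barcodes), and the ranges did not overlap.

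Cst7 was the member with the largest ratio. It was at 0.533, 1.82 and 4.21 CPM in Apoe-low and 76.1, 77.9 and 87.9 CPM in Apoe-high suffixes, a ratio of 47.4 (34.4 to 66.9). Its mean level is under the 50 CPM filter, so that it was not among the 9 tested. On unshared barcodes it was at 1.58 and 39.1 CPM, a ratio of 24.8 (17.4 to 36.3), higher in 6 of 6 suffixes. After thinning each cell to 1000 UMIs, 7.58% of Apoe-high and 0.164% of Apoe-low cells held a Cst7 UMI (8.60% and 0.433% unthinned, at median depths of 1079 and 2703 UMIs), and 4392 of 9895 Apoe-high and 871 of 8784 Apoe-low cells were too shallow to be thinned. The 0.164% is the level set by cells in which the gene is nearly absent. These shares of cells were not computed without shared barcodes.

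**Figure D1:**
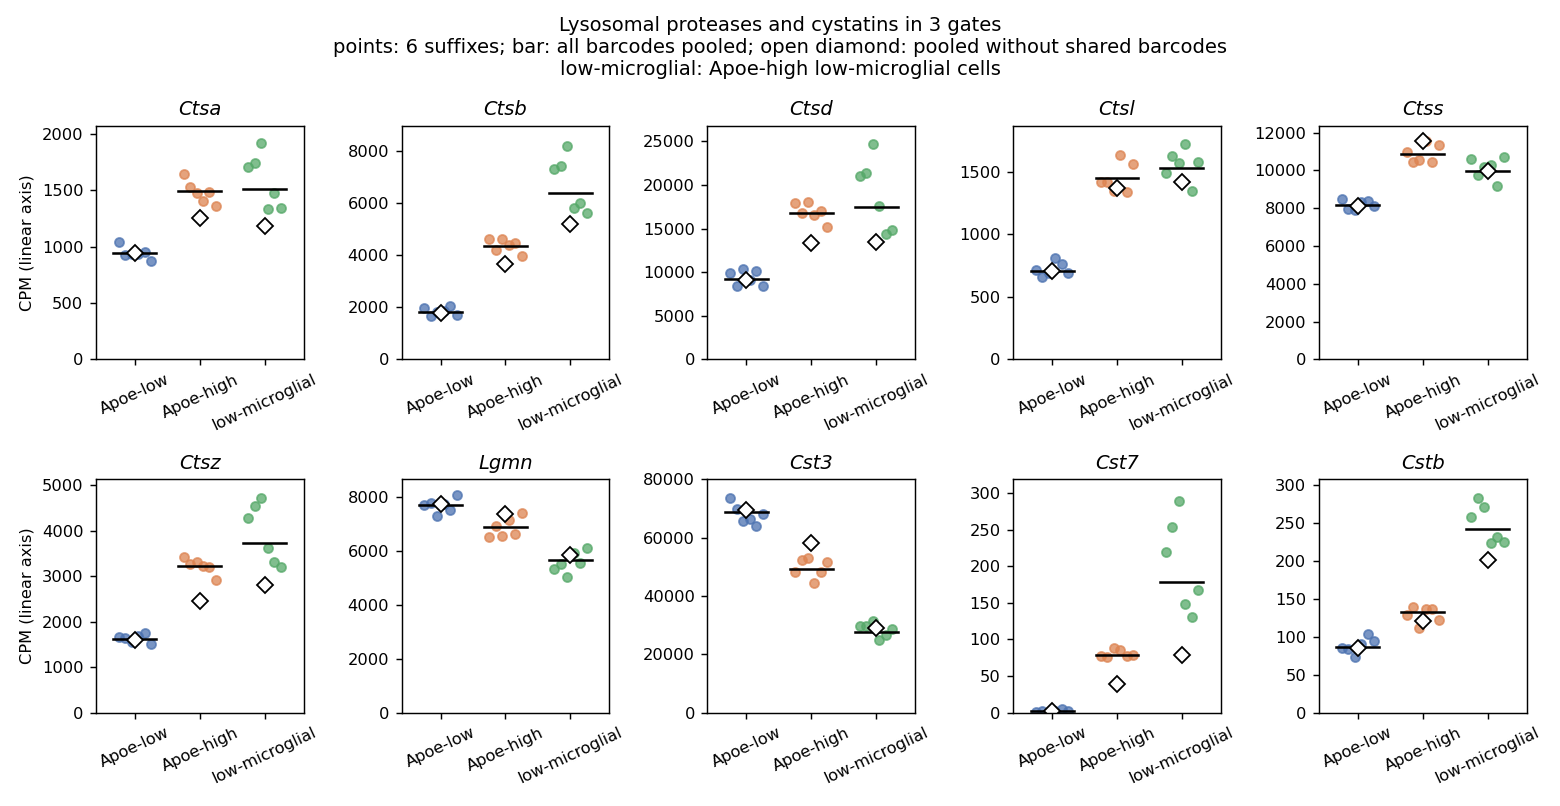
Level of each of the 10 genes (CPM, linear axes from 0) in Apoe-low microglia-like, Apoe-high microglia-like and Apoe-high low-microglial cells. Points are the 6 suffixes, bars the pooled value and open diamonds the pooled value without shared barcodes. Ctsb, Cst7 and Cstb stand higher from left to right and Cst3 lower (68880, 49383 and 27794 CPM), and the diamonds lie nearer to the Apoe-low level in Ctsb, Ctsd, Ctsz and Cst7.

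Depth differed between these gates, with median UMIs of 1079 in Apoe-high and 2703 in Apoe-low cells, so the comparison was repeated within 5 ranges of UMIs per cell. The balance was higher in Apoe-high cells in each range, with ratios of 1.32, 1.49, 2.16, 2.17 and 1.74 from the shallowest (500 to 800 UMIs) to the deepest (over 3000 UMIs). Ctsb was higher in each (1.65, 2.02, 2.99, 2.84 and 1.98) and Cst3 lower in each (0.902, 0.876, 0.751, 0.729 and 0.767). Without shared barcodes the balance (1.27, 1.41, 1.5, 1.54 and 1.69) and Ctsb (1.6, 2.35, 2.12, 2.26 and 1.92) were again higher in each range, but Cst3 was not lower in all of them. Its unshared ratios were 0.999 and 1.07 in the shallowest ranges, with 107 and 90 Apoe-high cells, and 0.949, 0.893 and 0.779 in the deeper ones. In Apoe-low cells the Cst3 level itself went with depth, from 45477 CPM in the shallowest to 74951 CPM in the deepest range, and the balance from 0.796 to 0.413. The part of depth in the pooled ratios was not tested beyond these ranges. The immediate early genes (Fos, Jun, Egr1, Dusp1, Zfp36 and Hspa1a), a sign of dissociation, moved too, with 2 of 6 called lower in Apoe-high cells and a median ratio of 0.708 (2 of 6 and 0.726 without shared barcodes). Of 7 microglial genes, such as C1qa, Trem2 and P2ry12, 3 were called higher and 1 lower (median 1.04), or 2 and 2 without shared barcodes. Of all genes 6.06% were called higher and 5.39% lower (5.67% and 2.80% without shared barcodes). The part of either gene set in the result was not tested.

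Over the whole range of Apoe, members did not follow one course. Microglia-like cells of at least 1000 UMIs were split into 5 bins, under 0.1%, 0.1 to 0.3%, 0.3 to 1%, 1 to 3% and over 3% of UMIs. Ctsb went from 1780 through 1974, 2243 and 3196 to 5138 CPM (1772 to 4406 CPM in the end bins without shared barcodes). Cst7 went from 1.81 through 3.01, 6.55 and 26.5 to 126 CPM (61.3 CPM in the last bin without shared barcodes). Its suffixes in the last bin lay at 107 to 138 CPM, and at 33.4 to 81.0 CPM without shared barcodes. Cst3 instead was highest in the middle bin, at 66677, 71314, 76300, 64577 and 39039 CPM, and without shared barcodes at 66779, 71376, 76648, 66877 and 40879 CPM. In the last bin the suffixes lay between 34923 and 42250 CPM, below every suffix of the other 4 bins. The balance stayed near one level in the first 3 bins (0.446, 0.431 and 0.429) and was 0.595 and 1.22 in the last 2 (0.557 and 1.07 without shared barcodes).

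**Figure D2:**
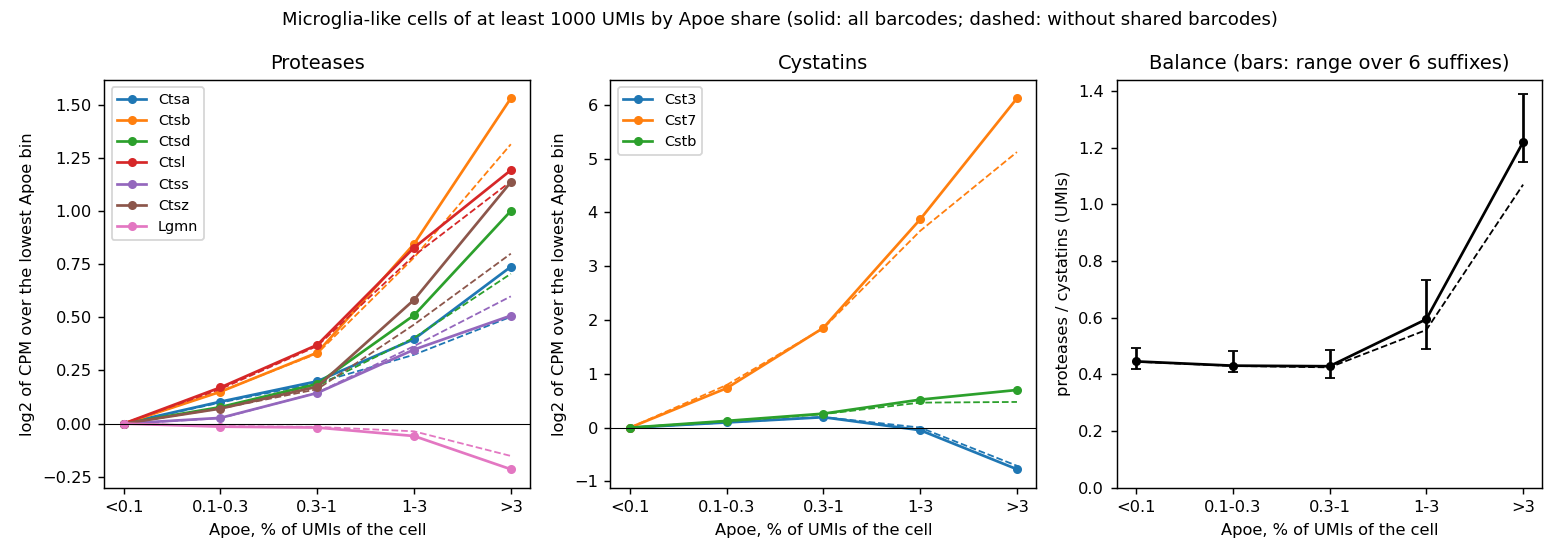
Proteases (left) and cystatins (middle) as log2 of CPM over the lowest Apoe bin, and the balance (right, linear axis from 0, bars for the range over 6 suffixes), against the Apoe share of the cell in 5 bins. Solid lines are all barcodes and dashed lines those without shared barcodes. Cst7 climbs in each bin, Cst3 turns down after the bin of 0.3 to 1%, and the balance passes 1 in the last bin (1.22).

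The same shift was seen cell by cell. After thinning to 1000 UMIs, proteases outnumbered cystatins in 4.88% of Apoe-low cells (interval 4.41 to 5.38%), 6.80% of Apoe-intermediate cells and 50.5% (49.2 to 51.8%) of Apoe-high cells. These intervals take shared barcodes as separate cells and cover counting error only. Without shared barcodes the shares were 4.75%, 5.58% and 34.0% (31.8 to 36.3%, 1777 Apoe-high cells), the last outside the interval above. The median Apoe-low cell held 29 protease and 65 cystatin UMIs, and the median Apoe-high cell 45 and 44. Without shared barcodes these medians were 29 and 65 in Apoe-low and 39 and 53 in Apoe-high cells. Between Apoe-low and Apoe-intermediate cells 0 of 9 members were called, beside 0.222% of 2699 genes higher and 0% lower (0.187% and 0% without shared barcodes).

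Apoe-high cells that fell short of the microglial gate (2107 cells, called Apoe-high low-microglial cells here, since no marker list names them) had the highest balance of all gates. It was 1.64 (suffixes 1.49, 1.72 and 1.83), and 1.36 (1.24, 1.31 and 1.68, 5 suffixes) in the 658 unshared barcodes. This ranking takes all cells of each gate. Monocyte-like cells with at most 0.3% of UMIs on microglial gate genes were at 1.57 (1.55 unshared). NK cell-like cells with the same limit were at 1.39 (1.39 unshared). All these balances count Ctsd and Ctsa, which cystatins do not bind. With the 5 cysteine proteases alone, the balance over all cells was 0.966 in Apoe-high low-microglial cells. It was 0.928 in monocyte-like and 0.539 in Apoe-high microglia-like cells, so that none of these gates passed 1. In the Apoe-high low-microglial cells 7 of 10 members were called higher than in Apoe-low cells, beside 11.3% of 2702 genes. In the same comparison 1 was called lower, beside 13.7%. One of the 7 is Cst7, which passed the 50 CPM filter only through the gate where it is high and had to differ, and 6 of the other 9 were called higher. On unshared barcodes 4 of 9 were higher, beside 11.0%, and 1 lower, beside 13.4%. The 7 microglial genes together were at 39455 CPM in these cells against 40470 CPM in Apoe-low cells, but went in different directions. With all barcodes 3 of the 7 were called higher and 2 lower (median ratio 0.972). P2ry12 and Tmem119 among them are also genes of the microglial gate, which these cells fell short of. Of 6 immediate early genes 5 were called lower (3 of 6 unshared). The part of these in the result was not tested.

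The called lower member was Cst3. Its lowest, median and highest suffixes were 24950, 29138 and 31263 CPM, all below those of Apoe-low and of Apoe-high microglia-like cells. The ratio to Apoe-low cells was 0.404 (0.401 to 0.406), and 0.419 without shared barcodes. Against Apoe-high microglia-like cells it was 0.563, and 0.502 without shared barcodes, so that the difference was as large without the shared barcodes.

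Ctsb reached 5597, 6627 and 8179 CPM, 3.50-fold (2.88-fold unshared) over Apoe-low cells, the largest protease ratio here. Cst7 was at 130, 194 and 289 CPM, a ratio of 107 (77.5 to 152), or 49.5 (34.1 to 73.5) unshared. Cstb, at 223, 244 and 282 CPM, was 2.81-fold higher (2.38-fold unshared). In none of these 3 genes did the suffixes overlap with those of Apoe-low cells. Lgmn was lower, at 5030, 5518 and 6098 CPM, with a ratio of 0.735 (0.754 unshared) that did not reach the 1.5-fold line. Ctsd spread widely, from 14384 to 24658 CPM among suffixes, around a ratio of 1.89 (1.48 unshared).

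Against the Apoe-high microglia-like cells, Cst7 was 2.26-fold (2.00-fold unshared) and Cstb 1.83-fold (1.67-fold unshared) higher, while Ctsd (1.04) and Ctsl (1.06) were near equal. By the 1.5-fold rule 2 of 10 members were higher, beside 3.40% of 2674 genes, and 1 lower, beside 3.22%. On unshared barcodes the shares of all genes were 3.72% and 3.01%, and the same 3 members were called, Cst7 passing the 50 CPM filter only through the higher gate. Proteases outnumbered cystatins in 81.7% of thinned cells (69.3% unshared).

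**Figure D3:**
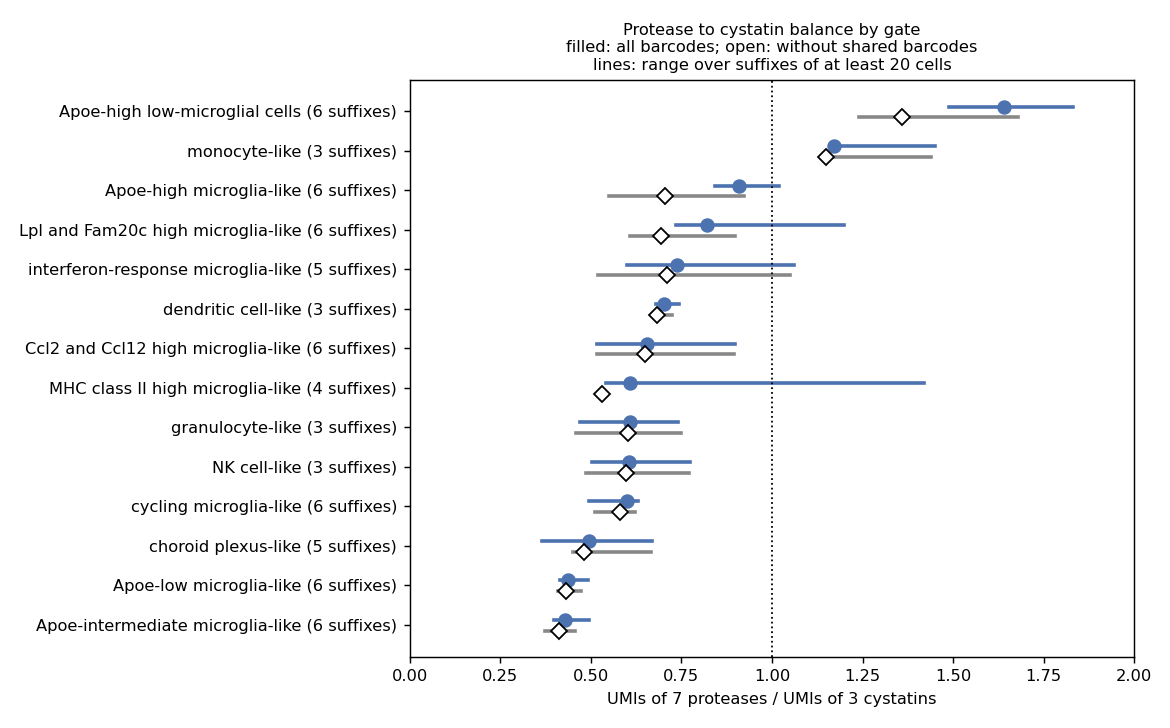
Balance of UMIs of the 7 proteases over UMIs of the 3 cystatins in 14 gates (linear axis from 0, dotted line at 1). Filled points are all barcodes, open diamonds those without shared barcodes, and lines the range over suffixes of at least 20 cells. All cells of each gate are drawn. Apoe-high low-microglial cells (1.64) and monocyte-like cells (1.17) lie above 1 with either set, and Apoe-low (0.438) and Apoe-intermediate (0.430) microglia-like cells lie lowest. NK cell-like cells (0.606) were at 1.39 among those with at most 0.3% of UMIs on microglial gate genes, which is not drawn.

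Microglia-like cells high in Lpl and Fam20c (708 cells), genes of lipid uptake and of a secretory pathway kinase, had a balance of 0.821 (suffixes 0.736, 0.788 and 1.2), and 0.695 (0.609, 0.727 and 0.897) in the 440 unshared barcodes. Against Apoe-low cells 6 of 10 members were called higher, Ctsb, Ctsd, Ctsl, Ctsz, Cst7 and Cstb, beside 4.84% of 2729 genes, and 0 lower, beside 4.07%. Cst7 again passed the filter only through the gate where it is high and had to differ, which leaves 5 of the other 9. Without shared barcodes 5 of 9 were higher, beside 3.66%, and 0 lower, beside 3.03%, with Cst7 then under the 50 CPM filter.

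Ctsb led, at 5113, 5339 and 6401 CPM, 3.03-fold over Apoe-low cells (2.74-fold unshared). Cstb, at 153, 190 and 314 CPM, was 2.39-fold higher (2.32-fold unshared). Cst7 ranged widely, at 46.6, 101 and 168 CPM, with a ratio of 63.5 (29.5 unshared). All suffixes of these 3 genes stood above all Apoe-low suffixes.

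The Lpl and Fam20c gate also holds more Apoe, so each state gate was set against cells of no state with the same Apoe range, UMI range and suffix, first with all barcodes and then without shared ones. This comparison was chosen after the data were seen and has no calls. Against their matches, Lpl and Fam20c high cells had 1.68-fold Ctsb (1.78 unshared), 1.42-fold Ctsz (1.46), 1.85-fold Cstb (1.89) and 2.21-fold Cst7 (2.23). Ctsb, Ctsz and Cstb were above their matches in 6 of 6 suffixes with either set, and Cst7 in 6 of 6 with all barcodes and 5 of 6 without shared ones. Ctsd (1.31, 1.34 unshared), Ctsl (1.15, 1.18) and Ctsa (1.10, 1.12) were less far above their matches, in 6 of 6 suffixes with either set. Lgmn was at 0.946 (0.955 unshared), with suffixes in both directions. Ctss (0.897, 0.898 unshared) and Cst3 (0.844, 0.849 unshared) were below their matches in every suffix. Over all genes the median ratio was 1.01, with 11.1% of 2680 genes at least 1.2-fold higher and 9.25% at least 1.2-fold lower.

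Cst3 was below its match in each of the 5 states and in every suffix used, with all barcodes and without shared ones. The ratios were 0.752 in Ccl2 and Ccl12 high cells (2085 cells matched), 0.849 in Lpl and Fam20c high cells (433), 0.867 in MHC class II high cells (177), 0.769 in interferon-response cells (205) and 0.717 in cycling cells (393), unshared in each case. Over all genes with all barcodes, 3.30%, 9.25%, 11.6%, 10.7% and 14.7% were at least 1.2-fold lower in these states, a size that Cst3 did not reach in the Lpl and Fam20c high and MHC class II high cells. The balance was above its match in all 5, by 1.31, 1.37, 1.13, 1.38 and 1.33 times. Ctsb was nearer to its match in 4 of the states, with unshared ratios of 1.01 in Ccl2 and Ccl12 high, 0.954 in MHC class II high, 1.13 in interferon-response and 0.875 in cycling cells.

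Ctss, which serves MHC class II loading, was 1.12-fold over its match in unshared MHC class II high cells (2 of 2 suffixes), and 1.10-fold with all barcodes (2 of 4 suffixes), so that the direction was not kept in every suffix. Unshared Ctss was at 1.10 in interferon-response cells too (4 of 5 suffixes higher). It was at 1.03 in Ccl2 and Ccl12 high and 0.979 in cycling cells. In MHC class II high cells 8.96% of 2555 genes were at least 1.2-fold higher with all barcodes, a size that Ctss did not reach. Of the 266 cells in that gate, 157 came from 1 suffix. Cycling cells had 0.702-fold Cstb (0 of 5 suffixes higher) and 1.80-fold Cst7 (5 of 5, at 13.8 CPM) unshared. With all barcodes these were 0.693 (0 of 6) and 1.58 (5 of 6), beside 31.7% of 2872 genes at least 1.2-fold higher and 14.7% at least 1.2-fold lower. Ctsl was 1.13-fold in Ccl2 and Ccl12 high, 1.18-fold in Lpl and Fam20c high and 1.17-fold in interferon-response cells, unshared, above its match in every suffix used (1.13, 1.15 and 1.13 with all barcodes). It was below its match in MHC class II high (0.911) and cycling cells (0.906).

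**Figure D4:**
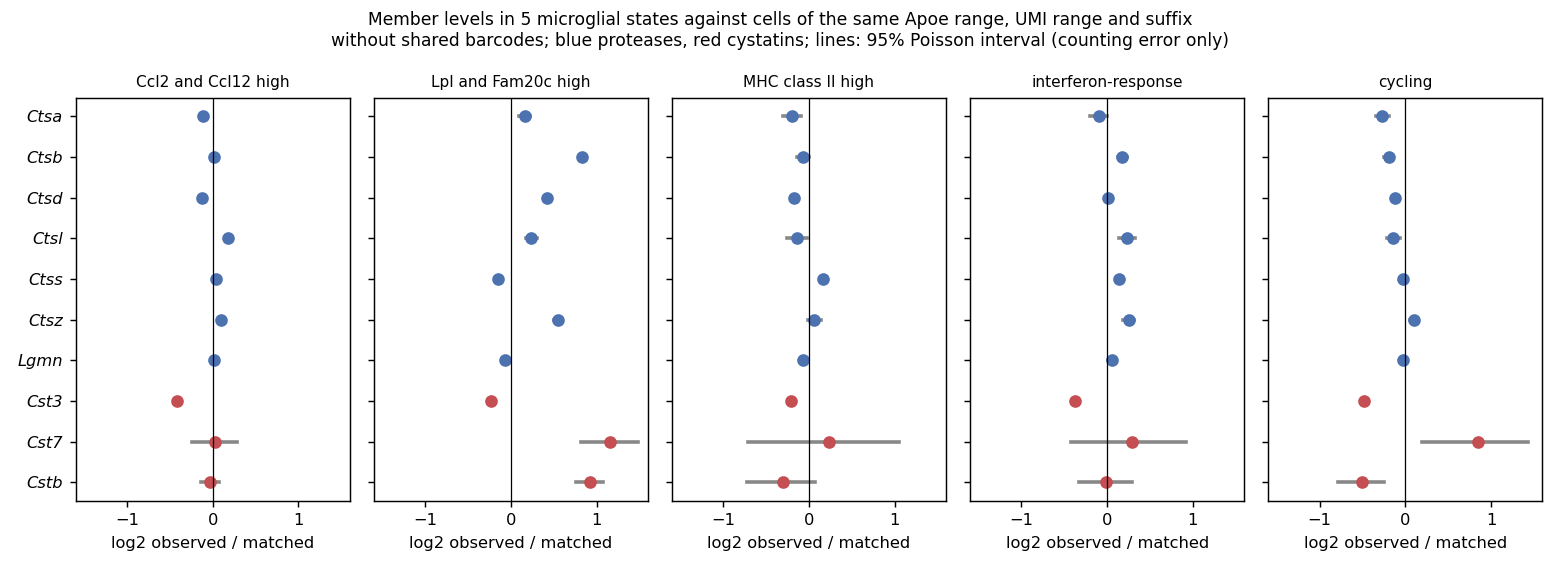
Log2 ratio of each member in 5 microglial states to cells of the same Apoe range, UMI range and suffix, without shared barcodes. Blue points are proteases, red points cystatins, and lines 95% Poisson intervals of counting error. Cst3 lies left of 0 in all 5 panels (ratios 0.717 to 0.867). In Lpl and Fam20c high cells Ctsa, Ctsb, Ctsd, Ctsl, Ctsz, Cst7 and Cstb lie right of 0.

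Against Apoe-low cells without matching, few members of the other states were called. Ctsl was called higher in Ccl2 and Ccl12 high cells (1.58 with either set of barcodes), beside 2.76% of 2679 genes higher and 0.971% lower (2.66% and 0.937% unshared). Ctsb and Ctsz were called in MHC class II high cells (1.71 and 1.5), beside 2.40% higher and 3.39% lower, and without shared barcodes neither was (1.43 and 1.28), beside 3.13% and 3.43%. Ctsb, Ctsl and Ctsz were called in interferon-response cells (1.76, 1.76 and 1.5), beside 6.56% higher and 3.87% lower. On unshared barcodes Ctsb and Ctsl stayed called there (1.72 and 1.78) and Ctsz was at 1.48, beside 6.17% and 3.59%. In cycling cells 0 of 9 members were called, beside 12.7% higher and 3.30% lower (14.3% and 3.77% unshared). No member was called lower in these 4 gates.

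Cells of other lineages were few and carried the members at other levels. Monocyte-like cells (222 cells gated on Ly6c2, Ccr2, Chil3 and Vcan) had a balance of 1.17 (3 suffixes, 1.16 to 1.45), and 1.15 unshared, with both sides low. Cst3 was at 8572 CPM, 0.124-fold of Apoe-low cells (0.128 unshared), Lgmn at 1361 CPM (0.177, 0.181 unshared) and Ctsd at 1573 CPM (0.170, 0.180 unshared). Cstb was the exception, at 542 CPM and 6.30-fold higher (6.31 unshared). In all, 1 of 9 members was higher, beside 34.2% of 2877 genes, and 7 lower, beside 24.3%. On unshared barcodes 1 was higher, beside 34.3%, and 5 lower, beside 23.9%. These cells also held 7 microglial genes at 0.0709 to 0.173 times the level of all microglia-like cells (median 0.152), with none at 0. On the same scale Cst3 was at 0.131 and Ctsd at 0.137, within that range. In 191 monocyte-like cells at most 0.3% of UMIs fell on microglial gate genes. There Cst3 was at 4746, Ctsd at 728, Lgmn at 878 and Cstb at 573 CPM, and the balance was 1.57. In 180 such unshared cells these were 4869, 755, 894 and 565 CPM and 1.55. The part of microglial RNA in these levels was not tested.

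Dendritic cell-like cells (112 cells) had little microglial RNA, with ratios of 0.0192 to 0.0462 (median 0.0359) for the 7 microglial genes. Lgmn (407 CPM, 0.0528-fold of Apoe-low cells) and Ctsd (482 CPM, 0.0520-fold) were lowest there, Cst3 stood at 7752 CPM (0.113-fold) and Cstb at 337 CPM (3.91-fold). Cst7 was at 43.6 CPM, from 25 UMIs, 1.87 times the level of all microglia-like cells. Of 9 members 8 were called lower, beside 24.7% of 2944 genes, and 1 higher, beside 39.0%. On unshared barcodes the same counts were found, beside 24.3% lower and 39.0% higher, and Cst3 had a ratio of 0.114 and Lgmn of 0.0521. Against all microglia-like cells Ctsd was at 0.0420, within the range of the microglial genes. In the 108 dendritic cell-like cells with at most 0.3% of UMIs on microglial gate genes, Ctsd was at 239 and Lgmn at 225 CPM. Cst3 was at 6475 and Cstb at 346 CPM there. In 104 such unshared cells Ctsd was at 244 and Lgmn at 214 CPM. The part of microglial RNA in these levels was not tested.

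NK cell-like, granulocyte-like and choroid plexus-like gates held microglial RNA at median ratios of 0.442, 0.704 and 0.307, and their member levels were therefore read in cells with at most 0.3% of UMIs on microglial gate genes. In the 97 such NK cell-like cells, in which the 7 microglial genes were at 0.0147 to 0.128 times the microglial level, Cst7 was at 187 CPM (130 to 259, from 35 UMIs), 8.00 times that of all microglia-like cells. The same cells had Ctsw, a cathepsin of cytotoxic lymphocytes, at 735 CPM, against 0.137 CPM in microglia-like cells, and Cst3 at 2931 CPM. In the 94 unshared cells Cst7 was at 192, Ctsw at 747 and Cst3 at 2838 CPM. In the 45 such granulocyte-like cells Cstb was at 867 CPM (630 to 1165), and the stefins BC100530 and Stfa2l1, relatives of Cstb, were at 552 and 237 CPM and nearly absent in microglia-like cells (0.0115 and 0.0229 CPM). In the 43 unshared cells these were 906, 391 and 247 CPM. In the 190 such choroid plexus-like cells Ctss was at 203 CPM, 0.0220 times the microglial level, and Ctsl at 460 CPM, 0.469 times that level (181 and 418 CPM in 137 unshared cells). What part of the Cst3 in these gates is free RNA or RNA of a second cell was not tested.

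**Figure D5:**
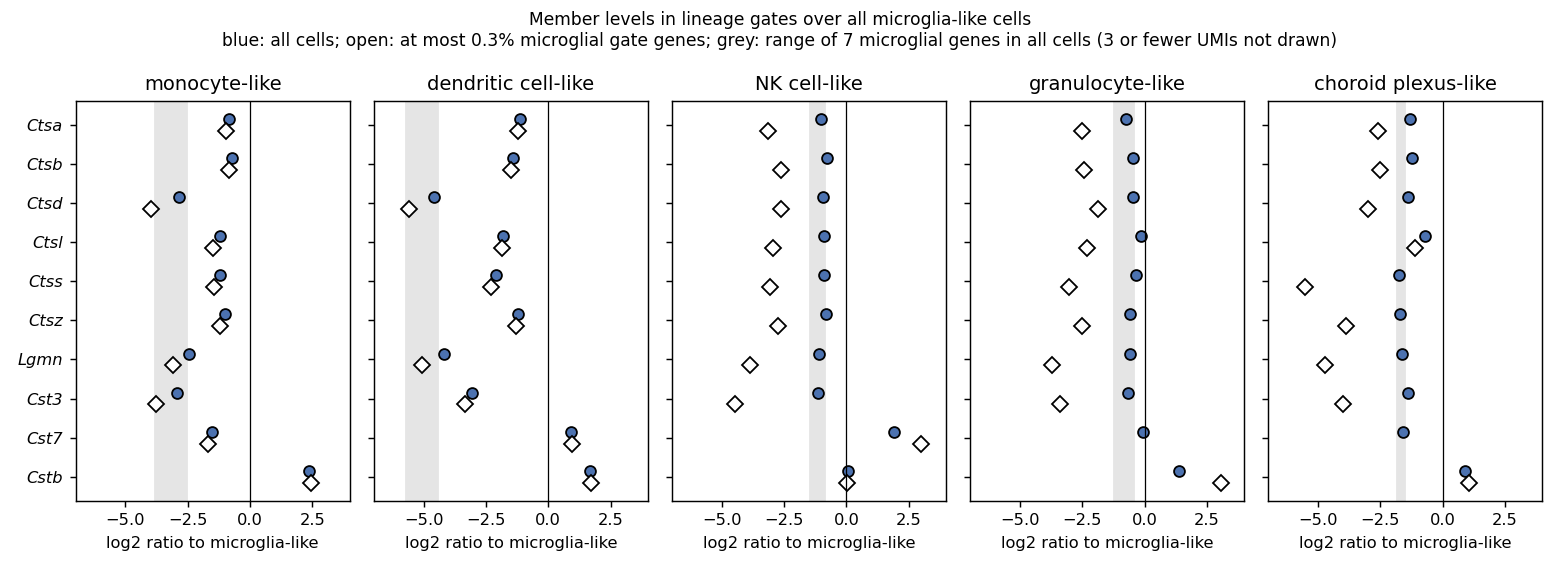
Log2 ratio of each member to all microglia-like cells in 5 lineage gates. Blue points are all cells of the gate, open diamonds those with at most 0.3% of UMIs on microglial gate genes, and grey bands the range of 7 microglial genes in all cells of the gate. Cstb lies right of 0 in monocyte-like (5.17-fold), dendritic cell-like (3.21-fold) and granulocyte-like cells (2.64-fold), and Cst7 in NK cell-like cells (3.80-fold).

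The rest of the lysosomal genes gave a background to the members. Of all 2725 genes, 6.06% were called higher and 5.39% lower in Apoe-high against Apoe-low cells, with a median ratio of 0.992. Without shared barcodes these shares were 5.67% and 2.80% of 2644 genes. Among 19 other lysosomal hydrolases and cofactors, 17 passed the filter in the comparison of Apoe-high with Apoe-low cells, 8 were called higher and 0 lower, with a median ratio of 1.49 (3 of 16 and 1.27 without shared barcodes). The highest were Glb1 (2.05), Grn (1.90) and Npc2 (1.83), and among the lowest were Lipa (0.923) and Asah1 (0.937). Of 14 lysosomal membrane and proton pump genes 11 passed and 1 was called, the tetraspanin Cd63, at 319 CPM in Apoe-low and 1451 CPM in Apoe-high cells (4.55-fold), with a median of 1.2 (1.06 unshared). Of the other cathepsins Ctsh was called (1.54-fold, not called unshared), Ctsc (1.24) and Ctsf (1.23) were not, and Ctso had a ratio of 0.810. The transcription factors were not called, with Tfe3 at 0.684, and Tfeb under the filter at 50.0 and 47.4 CPM. None of the 8 other cystatin-superfamily genes passed the filter.

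The genes most like each member were found by correlation of log2(CPM + 1) over 15 gates among 3788 genes. The gates share libraries, depth and free RNA, and the values are a description. Cst3 was most like Slco2b1 (r = 0.985), Btg2 (0.982), Bin1 (0.980), Ccnd1 (0.978) and Oaf (0.977). Cst7 had no close partner, and its nearest were Itgax (0.853), Apoc1 (0.782), Spp1 (0.770), Sdf4 (0.729) and Nceh1 (0.688). These 5 came to 0.587 to 0.738 without shared barcodes, where only 1 of them was still among the nearest 5.

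Cstb was nearest to Adssl1 (0.929), Mpp1 (0.890), Capg (0.888), Gsn (0.886) and Lilr4b (0.883). Ctsb was nearest to another member, Ctsz (0.953, 0.930 without shared barcodes), and then to Glmp (0.933), Rgs1 (0.933), P2rx4 (0.918) and Arid5b (0.914). Ctsd was nearest to Serpine2 (0.993), Syngr1 (0.992), C1qa (0.987), Naglu (0.986) and Eva1a (0.985), and Ctss to Itm2b (0.984), Selenop (0.976), Hexa (0.969), Osbpl11 (0.969) and Adgre1 (0.967). Among the members themselves, Cst3 was most like Lgmn (0.937) and least like Cstb (-0.750), while its r with Cst7 was -0.0834. Without shared barcodes 2 of the 5 nearest genes of Cst3 and of Cstb, 3 of those of Ctsb and of Ctss and 4 of those of Ctsd were still among the nearest 5.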

How the data were processed

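Per the labels and the methods, the authors isolated cells with percoll, sorted CD45+ cells without doublets, made 10x Chromium 3′ v2 libraries, used STAR in Cell Ranger 3.1 for alignment against mm10, and aggregated 6 libraries. The submitters' processing notes also name Seurat 3.1.5. The annotation release is not given in the sources used here. The deposited matrix holds raw counts of UMIs, whole numbers, and 0 other columns of values were left out.

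A barcode was kept if it had more than 200 genes, no more than 2500, and less than 5% mitochondrial counts. No doublet caller was run. Gates summed UMIs of marker panels. A lineage gate needed at least 3 (NK cell: Gzma, Nkg7, Ncr1, Klre1, Klrb1c, Prf1), 5 (granulocyte: S100a8, S100a9, Ngp, Camp, Retnlg, Ltf), 2 (dendritic cell: Cd209a, Flt3, Clec9a, Xcr1, Zbtb46, Ccr7), 3 (monocyte) or 4 (choroid plexus: Enpp2, Clu, Igfbp2, Folr1, Sostdc1, Kcnj13) UMIs. The microglial gate needed 3 UMIs and 0.5% of UMIs on its 6 genes, and states needed 4 (cycling, 12 genes of replication and mitosis such as Mcm5 and Top2a; interferon, 7 genes such as Ifit3 and Isg15), 5 and 0.4% (MHC class II), 3 (Lpl and Fam20c) or 5 and 1% (Ccl2 and Ccl12). Cells of several gates were set aside (77 of lineages, 559 of states), 476 cells passed no gate, and the border-associated macrophage gate held 9 cells, too few to report. Suffix values need 20 cells.

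CPM, exact Poisson, Clopper-Pearson and conditional ratio intervals (95%, counting error only, since PCR and cells of 1 sample add to it) were computed with Python 3.11.15, numpy 2.4.6, scipy 1.17.1 and pandas 2.3.3, tested on simulated data. A count of 0 allows up to 3 counts. Figures used matplotlib 3.10.9. Coordinates are from GENCODE for GRCm38. Named genes are the 10 members, the 5 genes most like each of 6 members, and the highest and lowest ratios of each other list, beside genes called in it, and some genes that this rule names are not reported here. The members, lists and gates were chosen with earlier results of these data known.

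Alternatives were thinning to 1000 UMIs, other limits on barcodes, doubled gate thresholds, another denominator, means over cells, other protease or cystatin sets, other filters on low genes, fewer microglial counts in the monocyte gate and leaving out each suffix. Leaving out shared barcodes, keeping 1 copy of each, a minimum of 2000 UMIs, UMI ranges (also without shared barcodes) and matched states were chosen after seeing the data.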

Additional observations from a re-analysis of the deposited data

Results flagged for a closer look

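Among 99 sets of suffix values (10 genes and the balance, in gates with 4 to 6 suffixes of at least 20 cells), 3 held 1 suffix far from the rest, and chance gives about 1 in 20. The balance of Lpl and Fam20c high cells was 1.2 in suffix 5, with the next suffix at 0.857 and the lowest at 0.736. Cstb in interferon-response cells was 181 CPM in suffix 4, with the next at 103 and the lowest at 95.3. Ctsd in cycling cells was 11577 CPM in suffix 3, with the next at 9933 and the lowest at 8950. Their cause was not tested.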

How the results depend on the processing

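No paired analysis was possible because the sample labels tie no barcode suffix to a mouse and the suffixes carry no group or replicate name. Of the values of the main results under an alternative, 117 moved by less than 1 SD over suffixes (or 1.5 times for a count), 27 moved by more and 4 reversed. These include the values with 1 suffix left out, which share most cells with the main pool. The count of small moves is therefore no measure of stability. Over Cst7 and Cstb only, the balance was 344 in Apoe-low cells, and its ratio to that level reversed to 0.620 in Apoe-high, 0.417 in Lpl and Fam20c high, 0.320 in Apoe-high low-microglial and 0.0563 in monocyte-like cells, since Cst3 is left out. With the 5 cysteine proteases alone the Apoe-low balance was 0.290 and the ratios 1.86, 3.33 and 3.20 in Apoe-high, Apoe-high low-microglial and monocyte-like cells. The balances behind these ratios were 0.539, 0.966 and 0.928, each under 1. The mean over cells gave 0.467 in Apoe-low cells. Doubled gate thresholds gave ratios of 2.34, 1.35, 3.27 and 3.08 in Apoe-high, Lpl and Fam20c high, Apoe-high low-microglial and monocyte-like cells. Thinning gave 2.61 in Lpl and Fam20c high and 3.29 in monocyte-like cells, and 2.63 for Ctsb in Apoe-high cells. Without shared barcodes the ratio of the balance was 1.63 in Apoe-high and 3.14 in Apoe-high low-microglial cells, that of Cst3 0.836 and of Ctsb 2.05, and 3 members were called in place of 6. With 1 copy of each barcode these were 1.81, and 0.782 and 2.17 for the 2 genes, and with at least 2000 UMIs 1.81, 0.779 and 2.22. In monocyte-like cells the ratio was 2.01 without the upper limit on genes, 2.02 with all barcodes and 3.58 in cells low in microglial genes. With each of the suffixes left out once, values were 0.433 to 0.448 for the Apoe-low balance, and ratios of 2.03 to 2.10 in Apoe-high, 1.82 to 1.91 in Lpl and Fam20c high, 3.61 to 3.88 in Apoe-high low-microglial and 2.53 to 2.75 in monocyte-like cells, 0.708 to 0.734 for Cst3, 41.7 to 53.9 for Cst7, 2.33 to 2.41 for Ctsb, and 5 to 6 members called. Of single genes in the other comparisons, 476 values moved by less than that, 89 by more and 0 reversed. Apart from the loss of Cst3, the causes of these moves were not tested. Of the members, Cst7 rests on the fewest UMIs in Apoe-low cells, 39.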
